A study of Sus scrofa with 28 samples.

Results

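The genes described here build and hold together the contractile apparatus of the heart muscle cell, the sarcomere. The choice used no measured value but was made with earlier results of these data known. The genes were taken by name from a list of 40 symbols. Of these, 38 were found among the 17603 genes of the count tables, 36 under their own symbol and 2 (ACTA1 and MYOM2) by their identifier through a reference table of names, and all 38 passed the filter on low counts. TTN and LMOD3 were not analysed here. The 38 genes comprised 5 genes of the thick filament (MYH7, MYL2, MYL3, MYBPC3 and MYLK3), 7 of the thin filament (ACTA1, ACTC1, TNNT2, TNNI3, TNNC1, TPM1 and LMOD2), 2 of the M-band (MYOM1 and MYOM2) and 12 of the Z-disc (ACTN2, NEBL, LDB3, CSRP3, TCAP, MYOZ2, MYPN, SYNPO2L, PDLIM5, NEXN, MYOT and FHL2). A further 8 encode linkers, desmin and small heat shock proteins around the Z-disc (DES, FLNC, CMYA5, XIRP1, XIRP2, SMPX, CRYAB and HSPB7), and 4 encode myosin chaperones and muscle ubiquitin ligases (UNC45B, SMYD1, TRIM63 and FBXO32).

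Polyadenylated RNA was sequenced from the hearts of 14 wild-type Landrace pigs, 3 months old, all of which had their left anterior descending coronary artery blocked by a balloon for 60 min and then reopened, so that no uninjured heart was in the comparison. After reopening, a single coronary dose of recombinant human Agrin (33 µg per kg) or of the control solution, named PBS in the labels, was given. Agrin is a matrix protein that acts on heart muscle cells through dystroglycan. Hearts were taken on day 3 (3 PBS and 4 Agrin pigs) or on day 28 (again 3 and 4), and the infarct zone and the remote zone of each heart, told apart by a tetrazolium stain, were sequenced apart, which gave 28 libraries. In what follows the values of a group are always given in the same order of pigs, which is 571, 573 and 575 for PBS and 570, 572, 576 and 577 for Agrin on day 3, and 523, 536 and 547 for PBS and 519, 522, 544 and 548 for Agrin on day 28.

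In the sarcomere, myosin heads of the thick filament pull on actin of the thin filament when calcium bound by the troponin complex moves tropomyosin aside. Thin filaments are anchored in the Z-disc by alpha-actinin and its partners, thick filaments are cross-linked in the M-band by myomesins, and desmin and filamin tie the Z-discs to each other and to the cell membrane. The adult heart muscle cell does not readily divide, and transcription of these genes in the heart is classically tied to serum response factor, which binds the CArG box, and to MEF2 factors.

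The promoters of 5 members from both ends of the response described below are printed. MYOM2, MYBPC3, MYL3 and LDB3 were among the deepest falls between zones, and XIRP2 stood at the other end. They are not all the genes of either end. Each run holds the 250 bases before and the 50 bases from the annotated RefSeq start on Sscrofa11.1, 5′ to 3′, and capitals mark the match to a CArG box (MYL3 and LDB3) or to a MEF2 site (MYOM2 and MYBPC3). The windows lie at chr15:33529309-33529608 on the plus strand, chr2:15247429-15247728 on the plus strand, chr13:29735567-29735866 on the minus strand, chr14:87660711-87661010 on the plus strand and chr15:73665626-73665925 on the plus strand.
MYOM2: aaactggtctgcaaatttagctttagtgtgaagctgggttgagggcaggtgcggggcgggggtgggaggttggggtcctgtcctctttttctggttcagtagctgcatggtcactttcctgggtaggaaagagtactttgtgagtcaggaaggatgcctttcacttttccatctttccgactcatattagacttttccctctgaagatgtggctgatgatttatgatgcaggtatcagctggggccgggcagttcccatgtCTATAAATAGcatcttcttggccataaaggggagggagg
MYBPC3: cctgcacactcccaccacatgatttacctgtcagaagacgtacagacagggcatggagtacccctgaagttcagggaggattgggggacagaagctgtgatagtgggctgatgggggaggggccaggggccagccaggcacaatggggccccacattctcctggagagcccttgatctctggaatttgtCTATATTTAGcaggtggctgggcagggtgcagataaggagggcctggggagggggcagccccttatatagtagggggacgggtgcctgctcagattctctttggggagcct
MYL3: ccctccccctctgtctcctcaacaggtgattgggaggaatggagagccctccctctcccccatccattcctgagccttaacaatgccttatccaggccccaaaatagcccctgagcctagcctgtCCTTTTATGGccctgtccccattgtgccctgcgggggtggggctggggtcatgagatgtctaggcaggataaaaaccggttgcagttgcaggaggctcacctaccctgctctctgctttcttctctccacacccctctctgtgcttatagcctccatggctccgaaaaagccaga
LDB3: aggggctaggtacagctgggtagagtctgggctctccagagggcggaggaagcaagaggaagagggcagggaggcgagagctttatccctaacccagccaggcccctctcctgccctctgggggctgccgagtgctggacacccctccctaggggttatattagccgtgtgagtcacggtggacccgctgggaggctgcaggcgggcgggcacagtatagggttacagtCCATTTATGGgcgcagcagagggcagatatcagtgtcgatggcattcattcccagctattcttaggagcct
XIRP2: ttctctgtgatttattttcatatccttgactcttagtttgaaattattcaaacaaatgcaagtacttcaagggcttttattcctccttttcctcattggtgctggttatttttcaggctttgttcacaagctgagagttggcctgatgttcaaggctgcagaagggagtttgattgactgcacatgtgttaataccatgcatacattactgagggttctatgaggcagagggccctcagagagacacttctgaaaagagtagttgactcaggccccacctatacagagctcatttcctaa

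With position 0 at the annotated start, the MEF2 match lay at 11 to 20 in MYOM2 and at -61 to -52 in MYBPC3, and the CArG box lay at -125 to -116 in MYL3 and at -21 to -12 in LDB3. Neither motif was found in the XIRP2 window. TNNI3 and MYLK3, also among the deepest falls, held neither motif, while HSPB7, among the smallest falls, held a MEF2 site. Over all 38 members, 9 windows (23.7%) held a MEF2 site (MYBPC3, MYOM1, MYOM2, MYOZ2, MYPN, SYNPO2L, XIRP1, SMPX and HSPB7), against 2.88% of 19531 promoters of the annotation, both strands searched. A CArG box stood in 4 windows (10.5%, in MYL3, LDB3, FHL2 and UNC45B), against 1.53% of all promoters. CATTCC, the core bound by TEAD factors, was found in 8 windows (21.1%, against 11.8%), and AGATAA, a core bound by GATA factors, in 6 (15.8%, against 9.17%). No match in a member overlapped a match to another motif. These are letter matches, described without a test, and say nothing of whether a factor was bound in these hearts.

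Library totals ranged from 15.38 to 34.77 M counts. Both zones carried counts of the 3 Y-linked genes ZFY, KDM5D and EIF1AY, or neither did, in 13 of the 14 pigs. In the remaining one, PBS pig 573 on day 3, the library labelled infarct held 328, 173 and 232 counts of these genes. The library labelled remote held 0 of each, so that the labels of this pig and these genes disagree. Counts or medians without this pig are given beside the main results of its group. Changes of single genes in the PBS pigs of day 3 include it unless stated. The infarct column of Agrin pig 577 carries the suffix B, which the labels do not explain. The heart label was not checked against another tissue. The summed level of 16 measured cardiomyocyte genes outside the sarcomere was 12510 to 24160 CPM (counts scaled to a common library size, as CPM of edgeR, and corrected by the trimmed mean of M-values) in the 14 remote libraries.

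In the remote zone the 38 genes took 9.21% to 12.8% of all counts of a library. In the infarct zone on day 3 they took 1.03%, 5.35% and 2.79% in the PBS pigs and 3.16% to 4.36% in the Agrin pigs. In the pigs of day 28 this share was 10.7% to 12.9% in the infarct zone with Agrin and 2.72%, 10.3% and 10.9% with PBS. A single library of the late PBS group, that of pig 523, thus lay within the range of day 3.

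On day 3 nearly the whole apparatus stood lower in the infarct zone than in the remote zone of the same heart. Of the 38 genes, 36 fell in the PBS pigs and none rose, with a median log2 change of -3.08 (-3.60 without pig 573), and 35 fell in the Agrin pigs and none rose, with a median of -2.70. Fell, rose and called are used of an adjusted p under 0.05 in edgeR's quasi-likelihood test with the pig as a block, Benjamini-Hochberg adjusted over all 15409 genes tested. By the same rule 32.2% of all genes were lower and 34.6% higher in the PBS pigs, and 33.1% lower and 37.6% higher in the Agrin pigs, and the median over all genes was 0.04 and 0.06. Every infarct library lay under every remote library for 35 members in the PBS pigs (all but CRYAB, DES and XIRP2) and for 37 in the Agrin pigs (all but XIRP2), as they did for 30.9% and 27.4% of all genes tested. Without PBS pig 573, 37 members fell, and leaving out any other single pig of the comparison left 34 or 35 called in PBS and 35 in Agrin. In bulk tissue, fewer muscle cells and less of these transcripts per muscle cell cannot be told apart.

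Most markers of the muscle cell outside the sarcomere moved with these genes. Of the 16 measured, 15 fell in the PBS pigs and 15 in the Agrin pigs, and their summed level was 525.5 to 2192 CPM (PBS) and 1303 to 3003 CPM (Agrin) in the infarct zone, against 16910 to 19840 CPM and 15480 to 24160 CPM in the remote zone. A separate list of 5 measured cardiomyocyte stress and fetal genes did not follow in every pig. Its summed log2 change was -3.935, 0.272 and -0.24 in PBS and -2.105, -1.344, -0.273 and -1.13 in Agrin. Markers of fibroblasts stood at 26900 to 49120 CPM (PBS) and 22460 to 56000 CPM (Agrin) in the infarct zone, against 7070 to 16640 CPM and 4589 to 7689 CPM (9 of 10 rose in each, and 1 fell in PBS), and those of macrophages at 1986 to 3427 CPM and 1830 to 2573 CPM, against 500.8 to 624.1 CPM and 222.1 to 533.9 CPM (6 and 7 of 10 rose). Their part in the fall of the sarcomere genes was not tested.

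**Figure D1:**
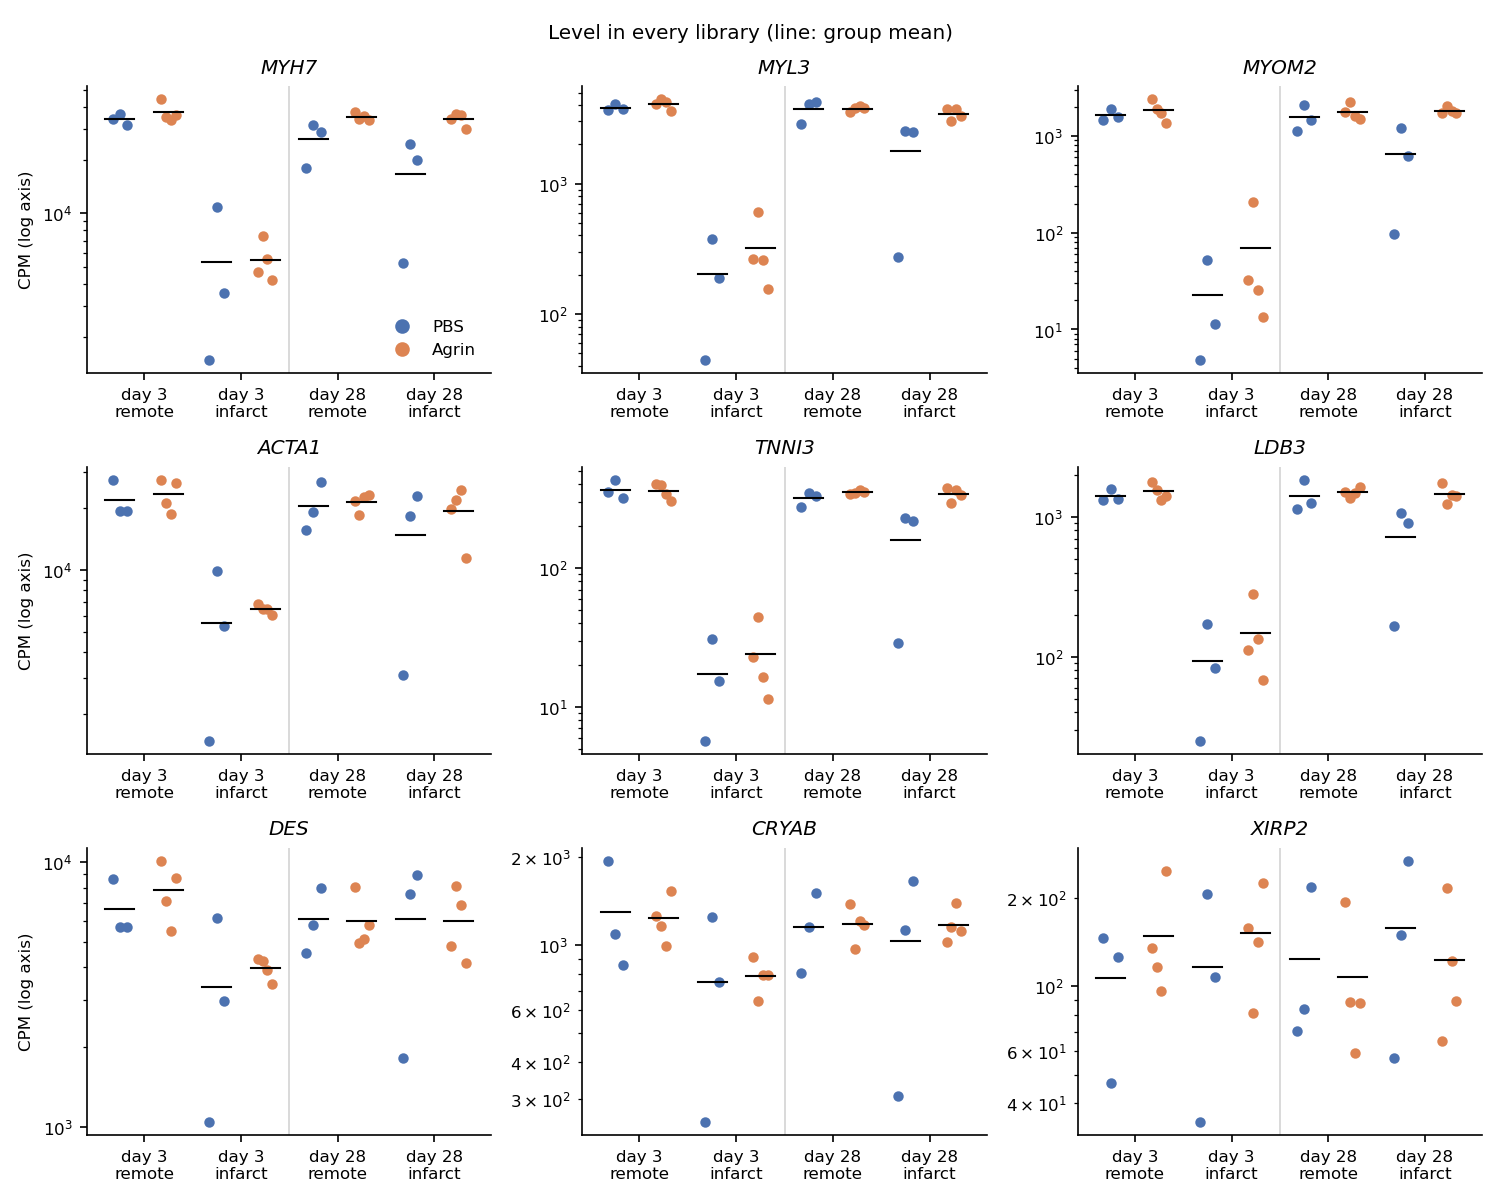
Level of 9 sarcomere genes in every library, in CPM on a log axis, by day and zone. Points are single libraries (blue PBS, orange Agrin) and lines are group means. MYOM2 in the day 3 infarct zone sits between 4.84 and 206 CPM, while XIRP2 overlaps between zones.

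The thick filament fell as a whole, with all 5 genes called in both treatments and class medians of -4.30 (PBS) and -3.73 (Agrin). MYH7, the slow myosin heavy chain that drives contraction in the ventricle, was the least reduced of the class. On day 3 MYH7 stood at 1481, 10790 and 3556 CPM in the infarct zone of the PBS pigs and at 4676, 7417, 5549 and 4182 CPM in that of the Agrin pigs, against 34170, 36550 and 31540 CPM and 44240, 34990, 33470 and 36120 CPM in the remote zone. The zones did not overlap, and pig 573 held the highest infarct value and pig 571 the lowest. The log2 change was -3.15 ± 0.47 (SE) in PBS and -2.80 ± 0.39 in Agrin, an 8.85-fold and a 6.95-fold fall (edgeR, adjusted p = 4.16e-05 and 1.58e-05). The reference table names this row MYH6, and 23.0% of the 100-base stretches of the MYH7 transcript also occur in the neighbouring gene that RefSeq annotates as myosin-6, so that reads of the alpha and beta heavy chains may be mixed or lost here.

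MYL2, the regulatory light chain of the ventricle, fell alongside its heavy chain. On day 3 MYL2 stood at 259, 1678 and 772 CPM in the infarct zone of the PBS pigs and at 1132, 1504, 1068 and 654 CPM in that of the Agrin pigs, against 8881, 6782 and 9207 CPM and 10960, 9605, 7692 and 8843 CPM in the remote zone. Its zones were also apart in every library (log2 change -3.56 ± 0.59 and -3.14 ± 0.48, edgeR adjusted p = 0.000106 and 4.21e-05). MYL3, the essential light chain, had the deepest fall of the class in PBS. On day 3 MYL3 stood at 44.4, 375 and 187 CPM in the infarct zone of the PBS pigs and at 262, 603, 259 and 154 CPM in that of the Agrin pigs, against 3687, 4067 and 3746 CPM and 4068, 4456, 4223 and 3583 CPM in the remote zone. The change was -4.68 ± 0.63 and -3.86 ± 0.51, or 25.6-fold and 14.5-fold (edgeR adjusted p = 1.68e-05 and 1.22e-05). Of the others, MYBPC3, the cardiac myosin-binding protein C that brakes the cross-bridge, changed by -4.49 ± 0.56 and -3.73 ± 0.47, and MYLK3, the kinase that phosphorylates the regulatory light chain, by -4.30 ± 0.44 and -3.91 ± 0.38.

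In the thin filament all 7 genes fell in both treatments, with class medians of -3.47 and -2.99. TNNI3, the inhibitory subunit of troponin, fell the most. On day 3 TNNI3 stood at 5.68, 31 and 15.3 CPM in the infarct zone of the PBS pigs and at 23, 44.6, 16.5 and 11.3 CPM in that of the Agrin pigs, against 352, 430.3 and 318 CPM and 402, 399, 339 and 303 CPM in the remote zone. Its change of -4.68 ± 0.54 (PBS) and -4.10 ± 0.45 (Agrin) corresponds to 25.6-fold and 17.1-fold (edgeR adjusted p = 4.36e-06 and 2.06e-06). The other troponin subunits fell less, with a change of -3.47 ± 0.58 and -2.99 ± 0.47 for TNNC1, which binds calcium. On day 3 TNNT2 stood at 279, 2176 and 912 CPM in the infarct zone of the PBS pigs and at 1394, 2165, 1410 and 889 CPM in that of the Agrin pigs, against 9311, 10660 and 9353 CPM and 11730, 11350, 10040 and 12000 CPM in the remote zone. TNNT2, which holds troponin on tropomyosin, thereby changed by -3.55 ± 0.53 and -3.01 ± 0.43 (edgeR adjusted p = 4.01e-05 and 2.39e-05).

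The actin pair differed in depth. ACTC1, the cardiac alpha-actin, changed by -3.85 ± 0.45 and -3.23 ± 0.38, whereas ACTA1, the skeletal alpha-actin that the heart also uses, changed by -2.30 ± 0.58 and -1.84 ± 0.46 (edgeR adjusted p = 0.0028 and 0.00246). On day 3 ACTA1 stood at 1474, 9851 and 5319 CPM in the infarct zone of the PBS pigs and at 6848, 6482, 6464 and 6032 CPM in that of the Agrin pigs, against 27380, 19430 and 19400 CPM and 27450, 21110, 18780 and 26490 CPM in the remote zone. The 4 Agrin infarct libraries lay close together for ACTA1, while the PBS ones spanned the values of pigs 571 and 573. TPM1, tropomyosin, changed by -2.46 ± 0.36 and -2.22 ± 0.31, and LMOD2, which lengthens thin filaments, by -3.37 ± 0.47 and -2.86 ± 0.39.

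The M-band held the gene with the deepest fall of all 38. On day 3 MYOM2 stood at 4.84, 52.2 and 11.5 CPM in the infarct zone of the PBS pigs and at 32.2, 206, 25.4 and 13.6 CPM in that of the Agrin pigs, against 1458, 1884 and 1582 CPM and 2399, 1878, 1730 and 1351 CPM in the remote zone. MYOM2, the M-protein, a relative of myomesin, thus changed by -6.83 ± 0.84 in PBS and -5.62 ± 0.70 in Agrin, 114-fold and 49.3-fold (edgeR adjusted p = 7.09e-06 and 6.39e-06). Agrin pig 572 stood apart from the other 3 Agrin pigs, which held 13.6 to 32.2 CPM. On day 3 MYOM1 stood at 24, 119.7 and 64.6 CPM in the infarct zone of the PBS pigs and at 63.4, 133, 116 and 69 CPM in that of the Agrin pigs, against 700.1, 576 and 773 CPM and 908, 669.5, 849 and 745 CPM in the remote zone. MYOM1, the myomesin of all striated muscle, changed by -3.57 ± 0.44 and -3.12 ± 0.36 (edgeR adjusted p = 7.21e-06 and 3.29e-06).

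All 12 Z-disc genes fell in both treatments, with class medians of -2.94 and -2.55. On day 3 ACTN2 stood at 176, 924 and 469.7 CPM in the infarct zone of the PBS pigs and at 681, 789.6, 703 and 554 CPM in that of the Agrin pigs, against 4648, 3734 and 3809 CPM and 5218, 3956, 4093 and 4041 CPM in the remote zone. ACTN2, the alpha-actinin that cross-links actin in the Z-disc, changed by -3.23 ± 0.46 and -2.67 ± 0.37 (edgeR adjusted p = 2.5e-05 and 1.77e-05). On day 3 NEBL stood at 90.6, 399 and 311 CPM in the infarct zone of the PBS pigs and at 253, 533, 409 and 234 CPM in that of the Agrin pigs, against 2091, 1797 and 2567 CPM and 2248, 2231, 2146 and 2637 CPM in the remote zone. For NEBL, the nebulette that ties actin to the Z-disc, this was a change of -3.24 ± 0.45 and -2.77 ± 0.37. LDB3, a PDZ protein bound to alpha-actinin, fell the most of the class. On day 3 LDB3 stood at 24.9, 172 and 83.2 CPM in the infarct zone of the PBS pigs and at 112, 279, 134 and 68.4 CPM in that of the Agrin pigs, against 1319, 1583 and 1346 CPM and 1779, 1568, 1326 and 1414 CPM in the remote zone. The fall came to 19.6-fold and 11.6-fold (log2 -4.29 ± 0.55 and -3.54 ± 0.45, edgeR adjusted p = 1.03e-05 and 8.35e-06).

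At the other end of the Z-disc class stood CSRP3, the muscle LIM protein known for its part in mechanical sensing. On day 3 CSRP3 stood at 61, 321 and 291 CPM in the infarct zone of the PBS pigs and at 235, 217, 249 and 184 CPM in that of the Agrin pigs, against 830.1, 506 and 670 CPM and 822, 829.7, 587 and 890.3 CPM in the remote zone. It changed by -1.81 ± 0.60 and -1.81 ± 0.48 (edgeR adjusted p = 0.0152 and 0.00392), and its call in PBS was lost with library totals as the only scaling. The remaining Z-disc genes lay between these ends, from MYPN (-3.78 and -3.16), which binds nebulette and alpha-actinin, and TCAP (-3.46 and -2.91), the titin cap, to SYNPO2L (-2.35 and -1.98), an actin-binding protein. FHL2, a LIM protein of the heart, changed by -2.66 ± 0.29 and -2.44 ± 0.25, and MYOZ2, which binds calcineurin, by -2.86 ± 0.52 and -2.32 ± 0.42.

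The class around the Z-disc was the least uniform. Of its 8 genes, 6 fell in PBS and 5 in Agrin, with medians of -2.01 and -1.58. CMYA5, a large muscle protein that binds desmin, fell as deeply as thick filament genes. On day 3 CMYA5 stood at 13.7, 72.5 and 38.3 CPM in the infarct zone of the PBS pigs and at 46.2, 124, 59.8 and 43.2 CPM in that of the Agrin pigs, against 535, 610.3 and 666 CPM and 866, 679.8, 891 and 708 CPM in the remote zone. Its change was -4.15 ± 0.44 and -3.67 ± 0.37 (edgeR adjusted p = 1.89e-06 and 8.61e-07). FLNC, the muscle filamin, fell less. On day 3 FLNC stood at 185, 833 and 475 CPM in the infarct zone of the PBS pigs and at 721, 652, 594 and 545 CPM in that of the Agrin pigs, against 2944, 1765 and 1405 CPM and 3007, 1639, 1768 and 1727 CPM in the remote zone. This came to -2.16 ± 0.45 and -1.66 ± 0.36 (edgeR adjusted p = 0.000709 and 0.000908), near the values of HSPB7 (-1.85 and -1.50), a small heat shock protein of the heart.

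DES, the intermediate filament of muscle, was called in PBS and missed the threshold in Agrin. On day 3 DES stood at 1041, 6128 and 2992 CPM in the infarct zone of the PBS pigs and at 4315, 4230, 3926 and 3447 CPM in that of the Agrin pigs, against 8619, 5694 and 5668 CPM and 10100, 7162, 5512 and 8725 CPM in the remote zone. The zones overlapped in PBS through pig 573. The change was -1.25 ± 0.53 (edgeR adjusted p = 0.0484) and -0.95 ± 0.42 (edgeR adjusted p = 0.0554), and DESeq2 called it in Agrin as well (adjusted p = 0.0167). With library totals as the only scaling DES was not called in either treatment. Desmin is also made by smooth muscle, whose 12 markers summed to 1662 to 1864 CPM (PBS) and 1462 to 2988 CPM (Agrin) in the infarct zone and 1241 to 2348 CPM and 1120 to 1354 CPM in the remote zone. More of these markers fell than rose in each treatment, and their part in the level of DES was not tested.

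CRYAB, a small heat shock protein that binds desmin and titin, was not called in either treatment. On day 3 CRYAB stood at 249.8, 1246 and 752 CPM in the infarct zone of the PBS pigs and at 909, 645, 792 and 791 CPM in that of the Agrin pigs, against 1933, 1095 and 854 CPM and 1259, 1165, 991 and 1532 CPM in the remote zone. Its change was -0.91 ± 0.49 (edgeR adjusted p = 0.115) and -0.65 ± 0.39 (edgeR adjusted p = 0.147). Without pig 573 it was called in PBS at -1.57 (edgeR adjusted p = 0.0245). XIRP2, a Xin protein that binds actin at the Z-disc and the intercalated disc, was the member whose zones differed least. On day 3 XIRP2 stood at 34.5, 206 and 108 CPM in the infarct zone of the PBS pigs and at 157, 80.8, 142 and 224 CPM in that of the Agrin pigs, against 146, 47 and 126 CPM and 135, 116, 96.4 and 246 CPM in the remote zone. Both zones overlapped in both treatments, and the change was -0.09 ± 0.69 and 0.03 ± 0.52 (edgeR adjusted p = 0.914 and 0.961). These SEs leave room for a change of more than 1 log2 unit in either direction. Its relative XIRP1 did change, by -2.80 ± 0.52 and -2.58 ± 0.44.

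All 4 chaperone and ligase genes fell in both treatments, with medians of -2.95 and -2.53. On day 3 SMYD1 stood at 21.7, 96.6 and 54.8 CPM in the infarct zone of the PBS pigs and at 61.5, 125, 91.5 and 57.3 CPM in that of the Agrin pigs, against 349.9, 349 and 480.1 CPM and 562, 353, 608 and 439.8 CPM in the remote zone. SMYD1, a methyltransferase needed for myosin assembly, changed by -3.00 ± 0.41 and -2.60 ± 0.34, and UNC45B, the chaperone that folds the myosin head, by -2.90 ± 0.35 and -2.47 ± 0.29. On day 3 TRIM63 stood at 13.3, 70 and 51.2 CPM in the infarct zone of the PBS pigs and at 51.7, 74.9, 55.6 and 45.3 CPM in that of the Agrin pigs, against 375, 388 and 284 CPM and 549, 423, 340.2 and 317 CPM in the remote zone. TRIM63, the ubiquitin ligase MuRF1 known from muscle wasting, changed by -3.21 ± 0.45 and -2.83 ± 0.37. On day 3 FBXO32 stood at 26, 54.7 and 31.7 CPM in the infarct zone of the PBS pigs and at 40.7, 58, 38.7 and 38.9 CPM in that of the Agrin pigs, against 184, 197 and 119 CPM and 251, 170, 188 and 139 CPM in the remote zone. FBXO32, which encodes atrogin-1, the other ligase of muscle wasting, changed by -2.19 ± 0.23 and -2.07 ± 0.19 with the smallest SE of the 38 (edgeR adjusted p = 1.3e-06 and 3.62e-07).

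**Figure D2:**
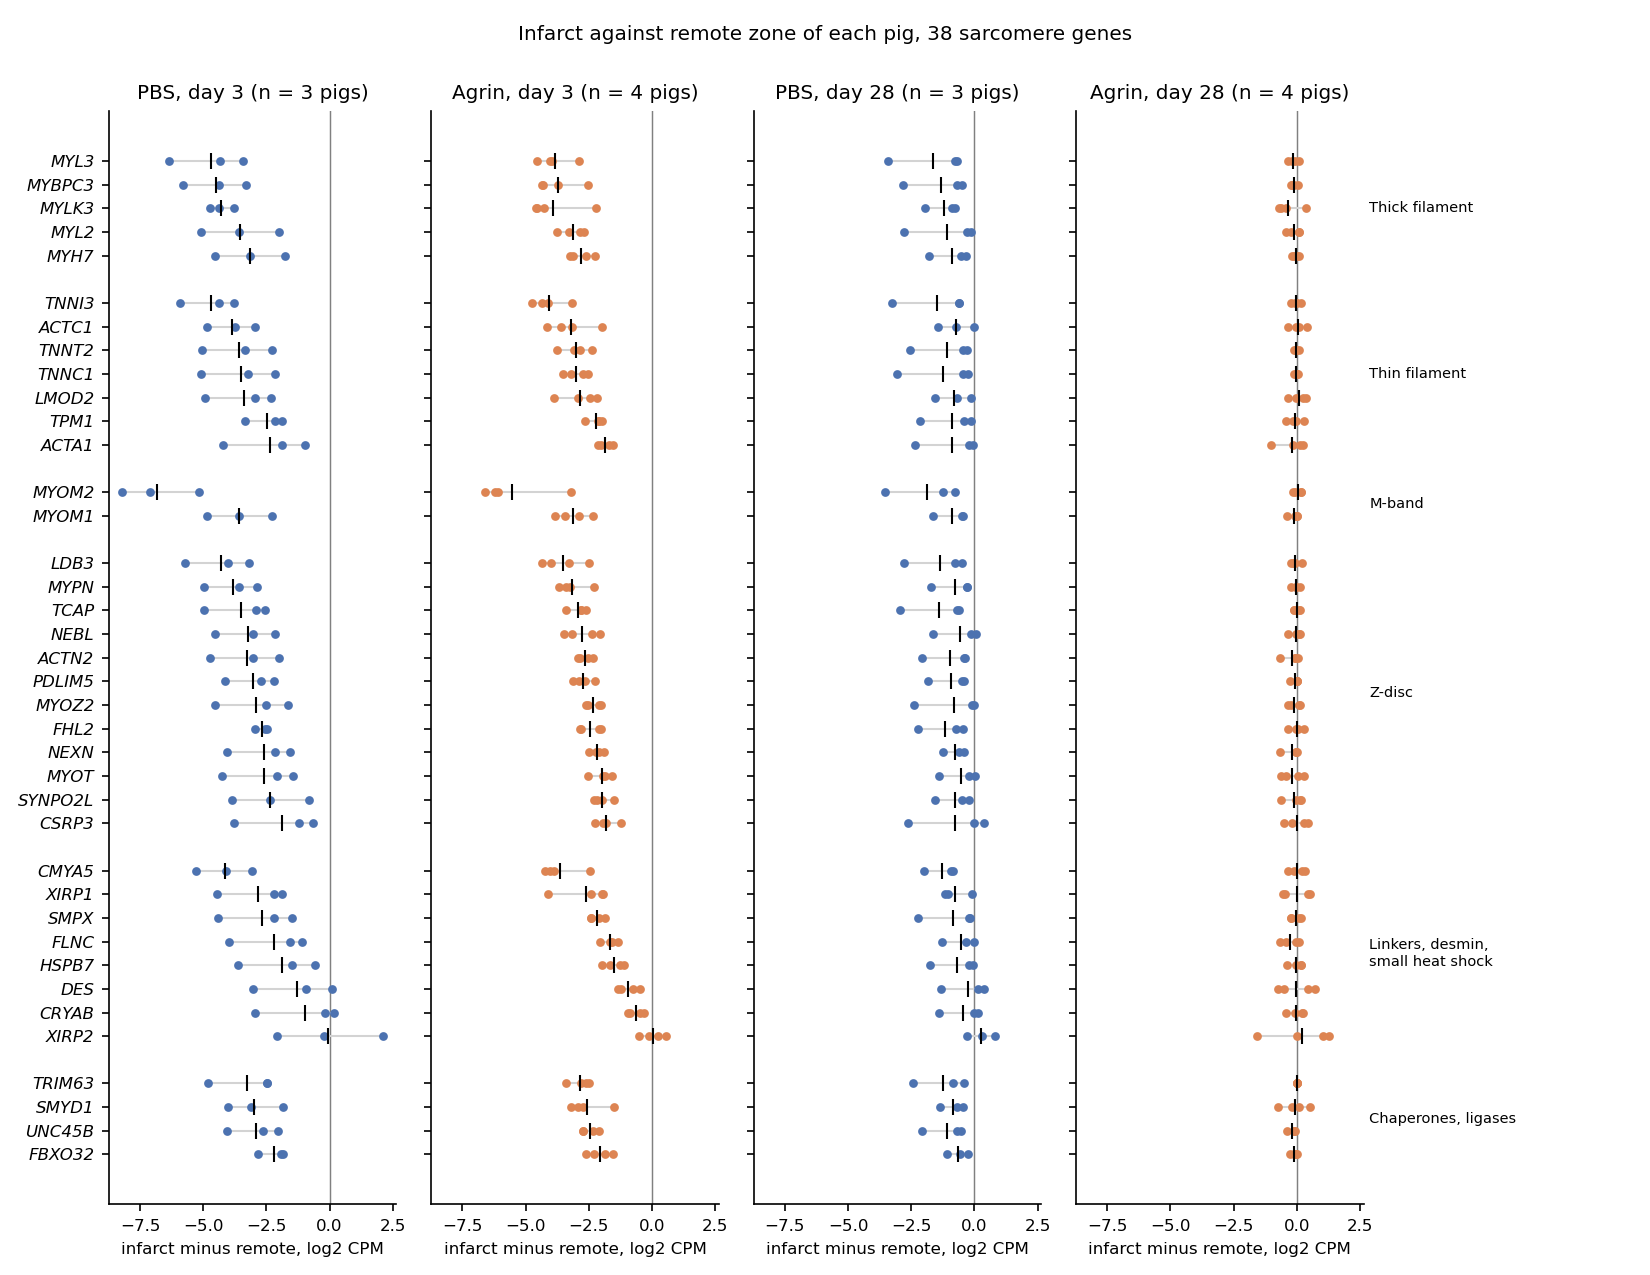
Infarct minus remote log2 CPM of each of the 38 genes, by class, with 1 point for each pig and a tick at the group mean. On day 3 MYOM2 lies farthest to the left (-8.21 to -3.19 over the 7 pigs), XIRP2 straddles 0, and on day 28 the points of the Agrin pigs gather around 0.

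The genes did not fall in step. Within each pig, the change of a gene minus the median change of the 38 genes does not depend on how the libraries were scaled. On day 3, 10 genes lay below that median in each of the 7 pigs and 13 lay above it in each, with pig 573 paired as labelled. The genes below were MYOM2 (median -3.52 relative to the others), TNNI3 (-1.55), MYL3 (-1.46), MYLK3 (-1.46), MYBPC3 (-1.26), LDB3 (-1.18), CMYA5 (-1.09), MYPN (-0.56), TNNC1 (-0.39) and MYOM1 (-0.34). Those above were led by XIRP2 (2.69), CRYAB (2.21), DES (1.90), HSPB7 (1.35), CSRP3 (1.33), FLNC (0.99) and ACTA1 (0.95), and included MYOT, SYNPO2L, FBXO32, TPM1, NEXN and MYOZ2 (0.61 to 0.32). This ordering is a description, given without a test.

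The same held for the share of each gene in the summed counts of the 38. On day 3 DES took 4.99% ± 0.95 (SD, n = 3) of them in the remote zone and 14.6% ± 0.18 in the infarct zone of the PBS pigs, and 5.35% ± 0.83 and 14.6% ± 1.51 (n = 4) in the Agrin pigs. ACTA1 went from 16.6% ± 2.42 to 23.3% ± 2.54 in PBS and from 16.0% ± 1.52 to 23.8% ± 3.36 in Agrin. CRYAB went from 0.96% ± 0.35 to 3.37% ± 0.40 in PBS and from 0.85% ± 0.13 to 2.92% ± 0.73 in Agrin. In these 3 genes no infarct library overlapped a remote library of its treatment. MYH7 took less, 21.2% ± 3.99 against 25.8% ± 1.78 in PBS, where its ranges overlapped, and 19.5% ± 2.01 against 25.5% ± 0.76 in Agrin, and MYOM2 went from 1.24% ± 0.20 to 0.08% ± 0.04 in PBS and from 0.92% to 1.43% (range, n = 4) to 0.06% to 0.61% in Agrin.

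**Figure D3:**
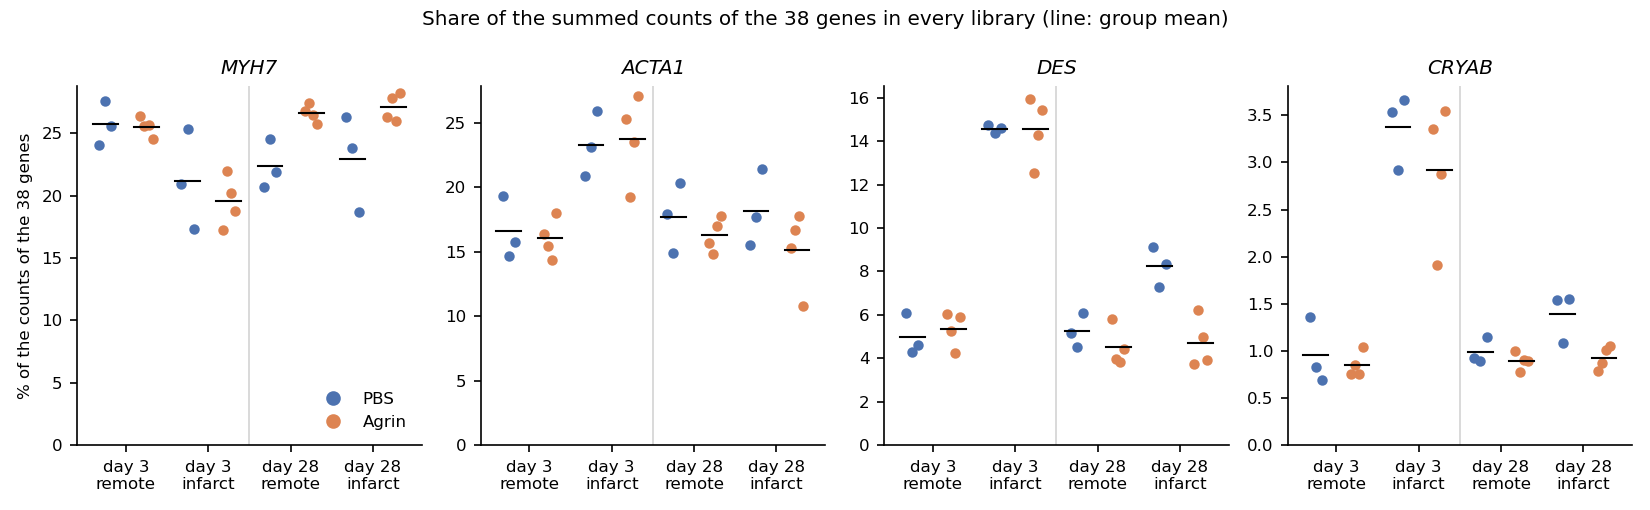
Share of 4 genes in the summed counts of the 38 genes, in percent, for every library (blue PBS, orange Agrin, line: group mean). DES takes 12.5% to 15.9% in the day 3 infarct zone against 4.22% to 6.07% in the remote zone, and 7.30% to 9.14% in the day 28 infarct zone of the PBS pigs.

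The depth of the fall differed between the pigs of a group. The median change of the 38 genes was -4.52, -2.03 and -2.82 in the PBS pigs of day 3. In the Agrin pigs it was -3.14, -2.09, -2.57 and -2.83, within the PBS range. The upper end of that range was pig 573, whose zones disagreed in the Y-linked genes. Without it, Agrin pigs 572 (-2.09) and 576 (-2.57) lay above the remaining PBS values, and pigs 570 and 577 between them. In the pig with the deepest fall, 571, the summed cardiomyocyte markers outside the sarcomere also changed the most (-5.01, against -2.52 to -3.93 in the other 6 pigs of day 3).

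In the pigs of day 28, which were other animals than those of day 3, the zones lay closer together. In the PBS pigs 8 of the 38 genes were called, all lower, with a median of -0.85, against 12.3% of all genes lower and 12.7% higher. They were FHL2, TCAP, CMYA5, TNNI3, MYLK3, UNC45B, TRIM63 and FBXO32, of which FHL2 had the lowest adjusted p (-1.13 ± 0.29, edgeR adjusted p = 0.0125). On day 28 FHL2 stood at 152, 618 and 585 CPM (PBS) and 886, 612, 959.6 and 949 CPM (Agrin) in the infarct zone, and at 709, 1034 and 803 CPM and 848, 774, 966 and 768 CPM in the remote zone. The infarct values of the 3 PBS pigs lay below their remote values without overlap, and pig 523 was far the lowest. On day 28 TNNI3 stood at 28.8, 228 and 219 CPM (PBS) and 377, 294, 367 and 335 CPM (Agrin) in the infarct zone, and at 274, 347 and 332 CPM and 339, 347, 367 and 355 CPM in the remote zone. TNNI3 changed by -1.43 ± 0.49 (edgeR adjusted p = 0.0495), and TCAP by -1.38 ± 0.47.

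This result rested on pig 523, whose infarct library held 6.83% mitochondrial counts (against 28.4% and 25.6% in the other 2 late PBS pigs) and 2121 CPM of the summed cardiomyocyte markers (against 11110 and 12960 CPM). Its median change over the 38 genes was -1.98, while pigs 536 and 547 stood at -0.42 and -0.41. The remote library of pig 523 also stood apart, with 23.1% mitochondrial counts (against 34.5% and 35.3% in pigs 536 and 547). It held 12510 CPM of the summed cardiomyocyte markers (against 20800 and 19450 CPM). Without pig 523 no member was called and the median was -0.38, whereas 6 and 5 members were called without pigs 536 and 547, and 0 when the pig was not used as a block.

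In the Agrin pigs of day 28 none of the 38 genes was called, with a median of -0.04. This was a count of 0 in edgeR, 0 at an unadjusted p under 0.05 and 0 in DESeq2, and 0.0% of all genes were called lower and 0.0% higher (599 of 15409 at an unadjusted p under 0.05, and 4 in DESeq2). The per-pig medians were -0.05, 0.04, 0.00 and -0.21, and single genes ran from -0.35 (MYLK3) to 0.23 (XIRP2). In none of the 38 did the infarct libraries all lie under the remote ones, which they did for 1.38% of all genes tested. Markers of fibroblasts stood at 7052 to 18610 CPM in the infarct zone of these pigs against 5394 to 9639 CPM in the remote zone, and in the PBS pigs at 15280 to 62470 CPM against 4163 to 10980 CPM.

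**Figure D4:**
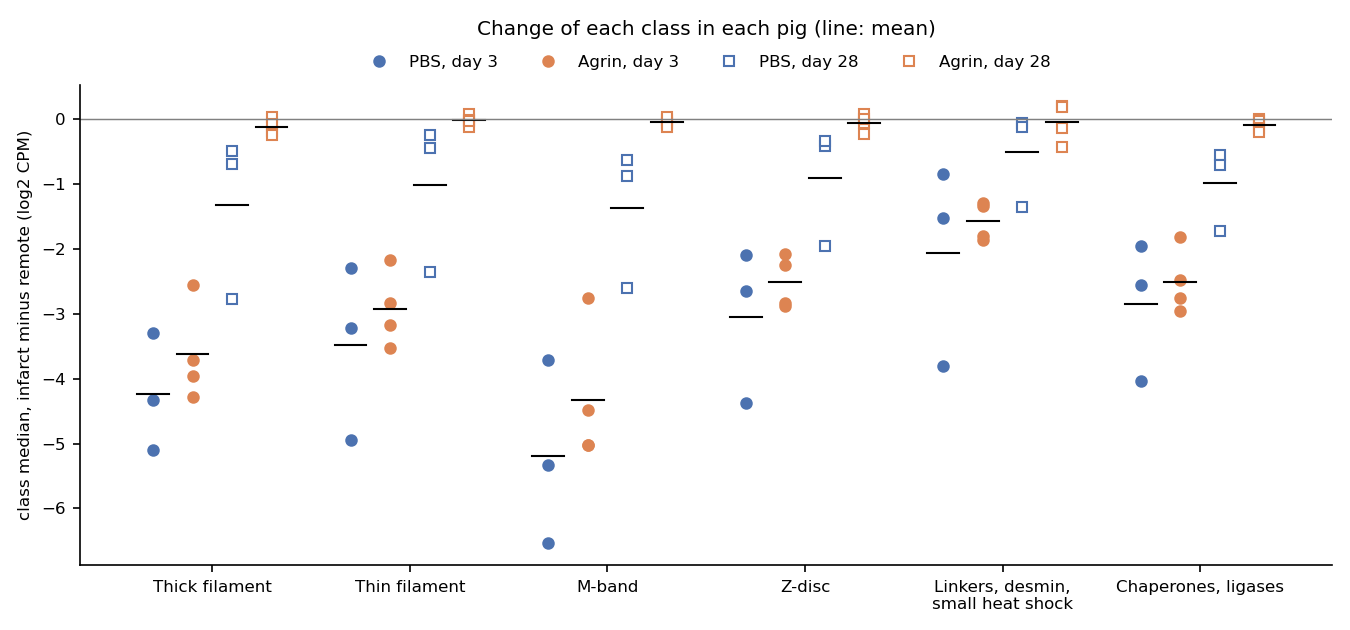
Class median of infarct minus remote log2 CPM in each pig (filled circles day 3, open squares day 28, blue PBS, orange Agrin, line: mean). All classes lie below 0 on day 3, the linker class the least, and the late PBS group is split between pig 523 and the other 2 pigs.

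The late level of each gene followed above is given for every library. On day 28 MYH7 stood at 5237, 24780 and 20050 CPM (PBS) and 34100, 36540, 36060 and 29950 CPM (Agrin) in the infarct zone, and at 18120, 31550 and 28920 CPM and 37140, 34240, 35350 and 33770 CPM in the remote zone. On day 28 MYL2 stood at 1108, 7726 and 7167 CPM (PBS) and 9003, 9700, 9831 and 6517 CPM (Agrin) in the infarct zone, and at 7583, 9395 and 7866 CPM and 10420, 9116, 9139 and 8699 CPM in the remote zone. On day 28 MYL3 stood at 271, 2525 and 2503 CPM (PBS) and 3725, 3017, 3719 and 3284 CPM (Agrin) in the infarct zone, and at 2887, 4080 and 4265 CPM and 3522, 3789, 3909 and 3780 CPM in the remote zone. In the infarct zone all 3 thick filament genes were lowest in PBS pig 523, with values in the range of the day 3 infarct zone. On day 28 ACTA1 stood at 3084, 18430 and 22910 CPM (PBS) and 19850, 21830, 24580 and 11450 CPM (Agrin) in the infarct zone, and at 15690, 19210 and 26800 CPM and 21740, 18500, 22710 and 23330 CPM in the remote zone. On day 28 TNNT2 stood at 1420, 7965 and 7992 CPM (PBS) and 10780, 9709, 9553 and 9873 CPM (Agrin) in the infarct zone, and at 8219, 10780 and 9718 CPM and 10130, 10510, 9702 and 10030 CPM in the remote zone. Pig 523 was again the lowest, and ACTA1 was also low in the infarct zone of Agrin pig 548. On day 28 MYOM2 stood at 96.7, 1217 and 613 CPM (PBS) and 1713, 2016, 1799 and 1703 CPM (Agrin) in the infarct zone, and at 1131, 2081 and 1452 CPM and 1775, 2219, 1610 and 1509 CPM in the remote zone. On day 28 MYOM1 stood at 108, 565 and 457 CPM (PBS) and 782, 725, 758 and 586 CPM (Agrin) in the infarct zone, and at 337, 781 and 642 CPM and 766, 712, 798 and 775 CPM in the remote zone. MYOM2 in the infarct zone of the Agrin pigs lay within the remote range.

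Among the Z-disc genes the late picture was alike. On day 28 ACTN2 stood at 522, 2982 and 2884 CPM (PBS) and 4158, 4115, 4083 and 2655 CPM (Agrin) in the infarct zone, and at 2202, 3943 and 3763 CPM and 4379, 3954, 4318 and 4232 CPM in the remote zone. On day 28 NEBL stood at 446, 2112 and 2108 CPM (PBS) and 2308, 2632, 2349 and 2692 CPM (Agrin) in the infarct zone, and at 1379, 2293 and 2025 CPM and 2896, 2463, 2398 and 2440 CPM in the remote zone. On day 28 LDB3 stood at 166, 1067 and 904 CPM (PBS) and 1758, 1241, 1426 and 1409 CPM (Agrin) in the infarct zone, and at 1141, 1836 and 1256 CPM and 1519, 1369, 1480 and 1633 CPM in the remote zone. ACTN2 and LDB3 were lower in the infarct than in the remote library of each PBS pig. On day 28 CSRP3 stood at 103.2, 526 and 624 CPM (PBS) and 494, 744, 720.1 and 442 CPM (Agrin) in the infarct zone, and at 634, 526 and 485 CPM and 703, 611, 524 and 502 CPM in the remote zone. On day 28 DES stood at 1818, 7607 and 8918 CPM (PBS) and 4824, 8147, 6879 and 4142 CPM (Agrin) in the infarct zone, and at 4518, 5788 and 8000 CPM and 8069, 4940, 5119 and 5797 CPM in the remote zone. On day 28 FLNC stood at 314, 1559 and 1486 CPM (PBS) and 1491, 1615, 1688 and 956 CPM (Agrin) in the infarct zone, and at 765, 1558 and 1888 CPM and 1990, 1518, 1718 and 1523 CPM in the remote zone. CSRP3 and DES showed no common direction over the PBS pigs. On day 28 CMYA5 stood at 108, 442 and 401 CPM (PBS) and 904, 614, 695 and 874 CPM (Agrin) in the infarct zone, and at 433, 796 and 769 CPM and 779.5, 786, 747 and 694 CPM in the remote zone. On day 28 XIRP2 stood at 56.9, 149.7 and 266 CPM (PBS) and 65.2, 216, 122 and 88.9 CPM (Agrin) in the infarct zone, and at 70.3, 83.8 and 217 CPM and 194, 88.1, 59.5 and 87.7 CPM in the remote zone. On day 28 CRYAB stood at 307, 1125 and 1658 CPM (PBS) and 1021, 1148, 1394 and 1113 CPM (Agrin) in the infarct zone, and at 806, 1150 and 1510 CPM and 1385, 969, 1210 and 1168 CPM in the remote zone. XIRP2 again overlapped between zones in both treatments. On day 28 SMYD1 stood at 67.7, 354 and 346 CPM (PBS) and 511, 448, 371 and 289 CPM (Agrin) in the infarct zone, and at 174, 563 and 479 CPM and 359, 422, 419.6 and 487 CPM in the remote zone. On day 28 TRIM63 stood at 38, 266 and 294 CPM (PBS) and 385, 338, 331 and 271 CPM (Agrin) in the infarct zone, and at 204, 357 and 534 CPM and 380.5, 333, 326 and 271 CPM in the remote zone. On day 28 FBXO32 stood at 73.5, 165 and 194 CPM (PBS) and 175, 133, 167 and 182 CPM (Agrin) in the infarct zone, and at 110.2, 194 and 408 CPM and 175, 144, 203 and 184 CPM in the remote zone. TRIM63 and FBXO32 were lower in the infarct library of all 3 PBS pigs.

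In the late PBS infarct zone DES took 8.25% ± 0.92 (SD, n = 3) of the counts of the 38 genes against 5.24% ± 0.79 in the remote zone, without overlap, and CRYAB took 1.39% ± 0.27 against 0.99% ± 0.14, with overlapping ranges. The share of MYH7 was 22.9% ± 3.89 against 22.4% ± 1.96, and that of ACTA1 15.5% to 21.4% against 14.9% to 20.3%, so that these did not repeat their day 3 difference. NEBL took 2.08% ± 0.15 against 1.63% ± 0.13, without overlap. On day 3 it had taken 1.24% ± 0.29 in the PBS infarct zone against 1.64% ± 0.39 in the remote zone, with overlapping ranges. In the Agrin pigs DES took 3.72% to 6.21% (n = 4) in the infarct zone and 3.83% to 5.81% in the remote zone, and CRYAB took 0.93% ± 0.12 and 0.89% ± 0.09. These shares were not tested. Relative to the other members, UNC45B was below the median in all 7 late pigs and no gene was above it in all.

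The response to the infarct differed between days in most of the genes. The infarct against remote change was called less negative on day 28 than on day 3 for 32 of 38 genes in PBS (median difference 2.09) and for 35 in Agrin (median 2.62), and for none was it called the other way, against 20.6% and 26.5% of all genes called in that direction. The difference was largest for MYOM2, 5.02 ± 1.01 in PBS and 5.66 ± 0.86 in Agrin (edgeR adjusted p = 0.00159 and 8.77e-05) and was also large for TNNI3 (3.25 ± 0.70 and 4.05 ± 0.58) and MYL3 (3.11 ± 0.81 and 3.73 ± 0.67). It was smallest for XIRP2 (0.37 ± 0.92 and 0.20 ± 0.76) and CRYAB (0.49 ± 0.67 and 0.64 ± 0.54), neither of them called. In PBS the count was 34 without pig 573, 20 without pig 536, 21 without pig 547 and 15 when only the libraries of the PBS pigs were fitted.

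In the remote zone the members differed less between the days. Most were lower on day 28, with 29 of 38 below 0 in PBS and 34 in Agrin. The members do not vary independently within a pig, so that these counts are a description. Between the days no member was called in the remote zone of PBS pigs (median -0.11) or of Agrin pigs (median -0.14), with 0 and 2 members at an unadjusted p under 0.05 in edgeR, 0 and 0 in DESeq2, and 0.0% of all genes called in PBS and 0.0% in Agrin (1465 and 1294 genes at an unadjusted p under 0.05, and 93 and 51 in DESeq2). In the infarct zone alone, 31 members were higher on day 28 than on day 3 in PBS (median 2.13, and 34 members without pig 573) and 35 in Agrin (median 2.55), against 25.6% and 32.4% of all genes.

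Agrin and PBS pigs were compared in 6 ways, and no member was called in any of them. In the day 3 response the median difference was 0.45 (Agrin less reduced), with 0 members at an unadjusted p under 0.05 in edgeR, 0 called in DESeq2 and 0.0% of all genes called (684 at an unadjusted p under 0.05, and 6 in DESeq2), and it was 1.06 without PBS pig 573 and -0.22 without PBS pig 571. The direction of the early difference thus rested on pig 571. In the day 28 response it was 0.78, or 0.35 without PBS pig 523, with 6 members at an unadjusted p under 0.05, 1 in DESeq2 (FHL2, 1.15 at an adjusted p of 0.0315) and 0.668% of all genes called (3332 of 15409 at an unadjusted p under 0.05, and 1068 in DESeq2). With all pigs the value was above 0 for 37 of 38 genes on either day, the exceptions being CSRP3 on day 3 (just under 0, SE 0.79) and XIRP2 on day 28 (-0.05 ± 0.82). The members do not vary independently within a pig, so that this count is a description of the same few pigs.

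The largest differences in the late response were those of MYOM2 (1.85 ± 0.87, edgeR adjusted p = 0.239), MYL3 (1.44 ± 0.73) and TNNI3 (1.38 ± 0.63), and the lowest adjusted p was that of FHL2 (1.14 ± 0.37, edgeR adjusted p = 0.11). The SE of such a difference was 0.28 to 0.87 over the members on day 28 and 0.29 to 0.92 on day 3. For a member with the median SE, 2 SEs came to 1.11 and 1.15. A difference under about this size could not be told from 0 for such a member even before adjustment. The limit is lower for members with a smaller SE and higher for those with a larger one, such as MYOM2 and MYL3. The adjusted threshold asks for more, and no member met it in edgeR.

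In the infarct zone alone, Agrin against PBS gave a median of 0.38 on day 3 and 0.70 on day 28, with 0 and 1 members at an unadjusted p under 0.05 in edgeR and 0 and 0 in DESeq2. Of all genes 0.0% (170 at an unadjusted p under 0.05, and 0 in DESeq2) and 7.32% (4334 at an unadjusted p under 0.05, and 2462 in DESeq2) were called. The day 3 median was 0.99 without pig 573 and -0.03 without pig 571, and the day 28 median was 0.27 without pig 523. On day 28 every Agrin infarct library lay above every PBS infarct library in 13 genes (CMYA5, LDB3, MYBPC3, MYH7, MYL3, MYOM1, MYOM2, NEBL, TCAP, TNNC1, TNNI3, TNNT2 and UNC45B), against 11.6% of all genes tested, and on day 3 in none, against 1.49%. In the remote zone the medians were 0.17 and 0.09, with 0 and 2 members at an unadjusted p under 0.05 in edgeR, 0 and 0 in DESeq2, and 0.0% of all genes called on each day (554 and 656 genes at an unadjusted p under 0.05, and 1 and 9 in DESeq2).

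**Figure D5:**
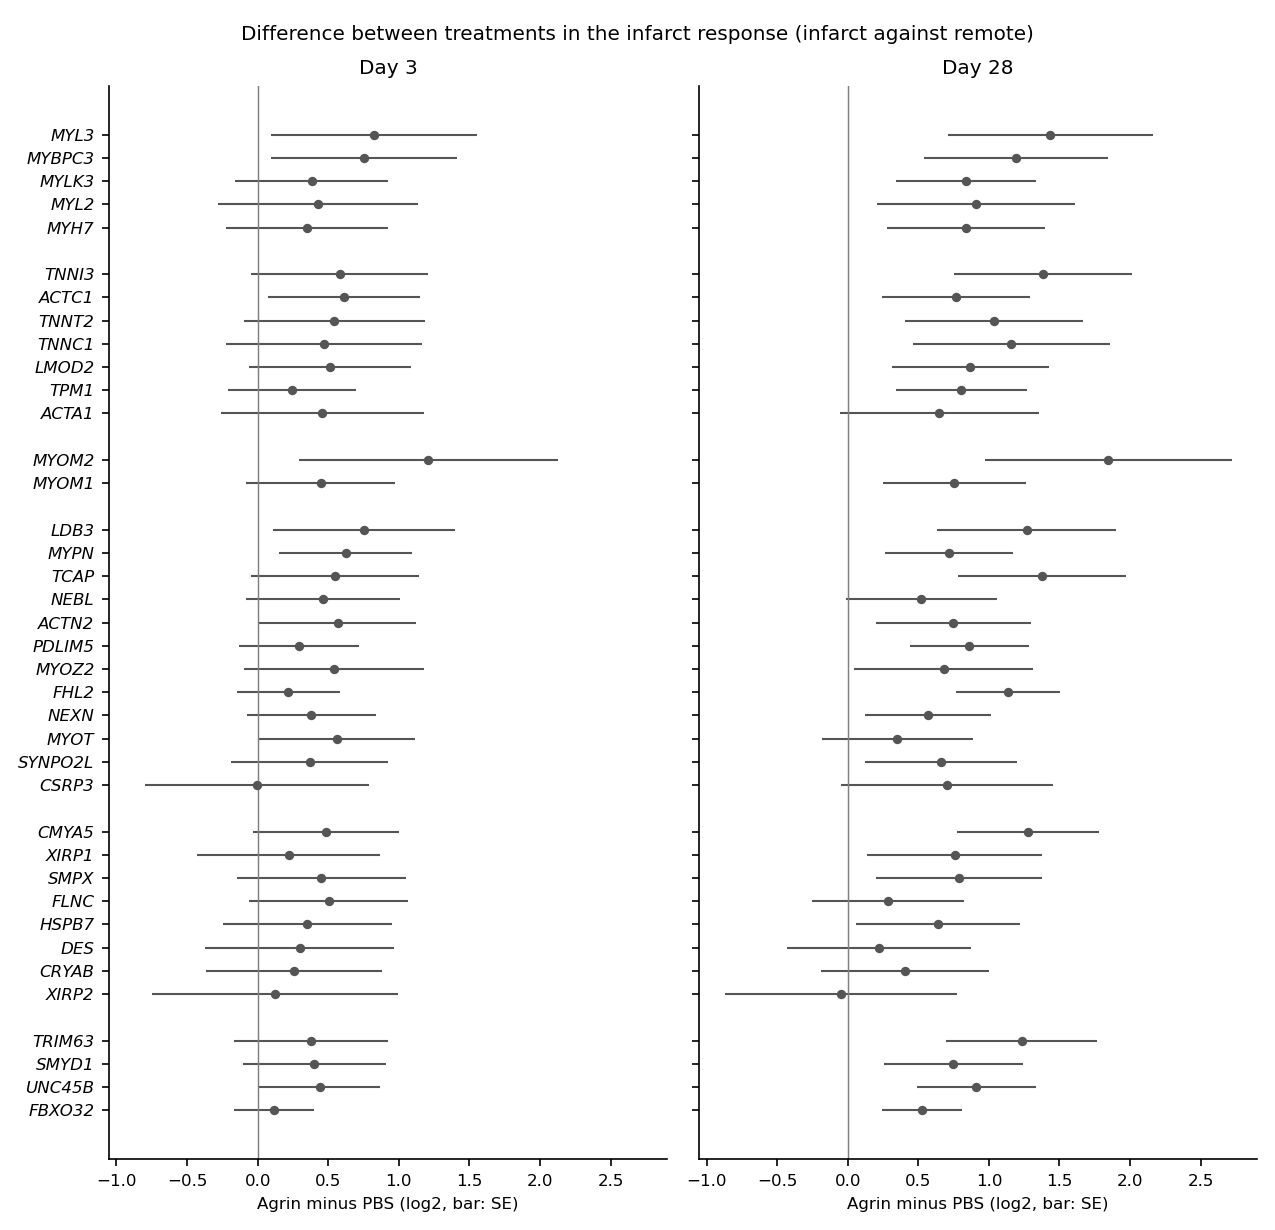
Difference between Agrin and PBS pigs in the infarct against remote log2 change of each of the 38 genes (points) with its SE (bars), for day 3 and day 28. Nearly all points lie above 0, with medians of 0.45 and 0.78, and no gene passed the adjusted threshold in edgeR.

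Other genes of the same structures moved in part alongside. Of 11 measured genes of the intercalated disc, which joins muscle cells end to end, all 11 fell in both treatments on day 3 (medians -2.80 and -2.43), among them the cadherin CDH2 (-3.12 ± 0.38 and -2.88 ± 0.32), the plakophilin PKP2 (-3.22 ± 0.40 and -2.76 ± 0.33) and the catenin CTNNA3 (-3.46 ± 0.42 and -2.84 ± 0.33). Of 21 further Z-disc and costamere genes, 16 fell and 4 rose in PBS, and 15 fell and 4 rose in Agrin. KLHL31 (-3.62 ± 0.41 and -2.98 ± 0.34) and KLHL40 (-3.39 ± 0.51 and -2.67 ± 0.42), both Kelch proteins of muscle, changed the most. Among the genes that rose were ACTN1 and FLNA, the non-muscle counterparts of ACTN2 and FLNC (2.25 ± 0.20 and 1.61 ± 0.25 in PBS, 2.45 ± 0.18 and 2.11 ± 0.22 in Agrin).

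Of 11 further genes of the M-band and of titin's partners, 7 fell and 1 rose in PBS, and 8 fell and 1 rose in Agrin. MYOM3, the third myomesin, changed by -3.60 ± 0.40 and -3.16 ± 0.34, and ANKRD23, which binds titin, by -3.90 ± 0.63 and -3.15 ± 0.50, whereas CAPN3, a calpain that binds titin in skeletal muscle, was higher (3.02 ± 0.31 and 3.13 ± 0.27). Of 11 further thin filament genes 6 fell and 2 rose in each treatment, with TNNI1, the slow troponin I of the fetal heart, at -3.49 ± 1.36 and -3.64 ± 1.07 and TNNI2, the fast troponin I, at 2.42 ± 0.46 and 2.44 ± 0.40. Of 8 further thick filament genes 2 fell and 2 rose in PBS, and 3 fell and 2 rose in Agrin, with MYH7B, a slow myosin, at -2.69 ± 0.32 and -2.52 ± 0.27 and MYBPC1, a skeletal myosin-binding protein C, at 6.37 and 3.70 (edgeR adjusted p = 0.000709 and 0.000906).

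By day 28 these lists were mostly quiet. In the PBS pigs 2 of 11 intercalated disc genes fell, 1 further Z-disc gene fell and 2 rose, 2 M-band genes fell and 1 rose, 1 thin filament gene rose, and 0 of the 8 thick filament genes was called. In the Agrin pigs no gene of these 5 lists was called by edgeR.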

How the data were processed

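Bulk polyA RNA was sequenced from infarct and remote zones of 14 pigs (28 libraries, 8 groups of zone, treatment and day, taken from the labels). The authors used bcl2fastq 2.20.0.422 and cutadapt on the raw reads, STAR 2.7.3a for alignment to Sscrofa11 and Picard 2.22.4 to collapse reads of 1 molecular identifier, then counted uniquely mapped reads per Ensembl gene with HTSeq, and the deposited tables hold raw counts. Deposited normalized values and the authors' own comparisons were not used. The authors tested with DESeq2 1.26.0.

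Counts were tested with edgeR 4.0.16 in R 4.3.3 (filterByExpr by group, TMM, robust quasi-likelihood fit, Benjamini-Hochberg over all genes). The fit of all 28 libraries (15409 genes) took each pig as a block, with a separate infarct term for every combination of treatment and day. Infarct libraries (14968 genes) and remote libraries (14324 genes) were also fitted alone, without a block. Pairing follows from the animal number, which the Y-linked genes did not bear out for PBS pig 573, kept as a block as labelled. The residuals of the zones of a pig correlated at 0.115 to 0.639. The SE was computed from the fold change and the F statistic. Levels are CPM scaled by TMM over all libraries. The procedure was run on simulated counts with no pig effect and with changes in a small part of the genes. That run could not check the block or a change as broad as that of day 3. Separate pigs are biological replicates, and no library copied another of its group (highest correlation 0.994). Totals were 15.38 to 34.77 M counts, and counting error was not compared with the spread between pigs. Some members had few counts in the day 3 infarct zone, such as MYLK3 with 51 in PBS pig 571.

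Alternatives were size factors by relative log expression, library totals alone, no mitochondrial genes, no filter, DESeq2 1.42.0, no block, each comparison fitted alone, the study's thresholds, and each pig left out. The members, lists and tests were chosen with earlier results of these data known. All 38 members may be named. Every library's value is given for the 2 genes of highest level and the genes of largest and smallest day 3 change in each class, and for those whose response differs most between days, and for FHL2 on day 28, chosen after its values were seen. Of further lists up to 3 genes of largest change are named, with ACTN1, FLNA, CAPN3, TNNI2 and TPM3 chosen after their values were seen. An item withheld for evaluation is not reported here. Promoters and gene positions are from RefSeq on Sscrofa11.1.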

Additional observations from a re-analysis of the deposited data

Results flagged for a closer look

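The infarct response of the sarcomere genes differed between days by a test of the difference itself, in 32 genes of the PBS pigs and in 35 of the Agrin pigs. In the groups of 4 pigs, 158 sets of values were searched for a pig far from the other 3, and 12 (7.59%) had one. For a single set of normal values the rule flags about 1 in 20 by chance. These sets share the same pigs and are not independent, so that no excess can be read from the share. The figure given is the gap to the nearest pig over the whole range. In the day 3 infarct zone pig 572 stood above the others in MYOM2 (206.2 CPM against 13.59 to 32.17 CPM, gap 0.904), MYLK3 (12.65 CPM against 3.11 to 4.70 CPM, gap 0.833) and FBXO32 (58.01 CPM against 38.69 to 40.68 CPM, gap 0.897). In the day 3 remote zone pig 570 was high in ACTN2 (5218 CPM against 3956 to 4093 CPM, gap 0.891) and FLNC (3007 CPM against 1639 to 1768 CPM, gap 0.906), and pig 576 was low in HSPB7 (1134 CPM against 1616 to 1659 CPM, gap 0.918) and MYOZ2 (1780 CPM against 2280 to 2339 CPM, gap 0.895). In the day 28 infarct zone pig 548 was low in ACTN2 (2655 CPM against 4083 to 4158 CPM, gap 0.95) and MYOT (152.6 CPM against 292.6 to 302.3 CPM, gap 0.935), and pig 519 was high in MYLK3 (102.9 CPM against 55.94 to 63.16 CPM, gap 0.846). In the day 28 remote zone pig 519 was high in NEBL (2896 CPM against 2398 to 2463 CPM, gap 0.87) and pig 522 low in PDLIM5 (842.7 CPM against 1079 to 1111 CPM, gap 0.881).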

How the results depend on the processing

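The day 3 counts of 36 and 35 stayed within 1.5 times under every alternative run (34 to 37 and 35 to 35 with single pigs left out), and no called value changed sign in 7372 comparisons of a member with an alternative, while 326 values that were uncalled in both changed sign. Scaling by library totals alone moved the median of all genes on day 3 to 0.69 (PBS) and 0.76 (Agrin), and the median of the members to -2.43 and -1.99, and lost the calls of CSRP3 and DES in PBS and of HSPB7 in Agrin. The late PBS count of 8 became 1 with library totals alone, 5 with no filter on low counts, 13 in DESeq2, 0 without the pig as a replicate block and 0 when those libraries were fitted alone, and ranged from 0 to 6 with single pigs left out. The block changed no other count by more than 1.5 times. The day 28 against day 3 response in PBS gave 15 when fitted alone and 20 to 35 with single pigs left out, against 31 to 34 in Agrin. The infarct zone counts between days ran from 22 to 36 (PBS) and 31 to 35 (Agrin). DESeq2 called 1 member in the late Agrin against PBS response. Every count of 0 stayed at 0 to 0 with single pigs left out. Set against its class median, no gene was below in all late pigs (0 in place of 1). The cause of these shifts was not tested, other than that fewer libraries enter the fits of a comparison alone. The effect of depth was not tested.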

Other observations

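Some smooth muscle and non-muscle relatives of the sarcomere proteins, chosen here after their values were seen, rose on day 3, although more smooth muscle markers fell than rose. ACTA2, the smooth muscle actin, changed by 1.74 ± 0.42 in PBS and 2.66 ± 0.36 in Agrin, TAGLN, which binds smooth muscle actin, by 1.84 ± 0.34 and 2.42 ± 0.29, and TPM3, a tropomyosin of many cell types, by 2.36 ± 0.15 and 2.49 ± 0.13. Of the 12 smooth muscle and pericyte markers 2 rose and 5 fell in PBS, and 4 rose and 5 fell in Agrin (edgeR, adjusted over all genes).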
